A study of Homo sapiens with 24 samples.

Results

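The 46 genes described here encode the proteins that copy DNA and that drive cells from G1 into S phase. They were listed by name for that function, with earlier results of these data known, and they are 46 of the 60609 gene rows in the expression table. All 46 passed the filter on low values, among 16062 genes tested. They cover origin licensing (10 genes), helicase activation (6), the sliding clamp and its loaders (6), polymerases and primase (8), lagging strand maturation (2), nucleotide supply (4), G1/S control (5), the fork checkpoint (1), and chromatin assembly and histone supply (4).

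RNA was measured by stranded mRNA sequencing in A549 cells, an established human lung adenocarcinoma line. Cells carried either a pool of siRNAs against BOP1, a factor of large ribosomal subunit assembly, or control siRNA against firefly luciferase (FLuc), a gene that human cells lack. After 48 h, cells were given a mock treatment or interferon beta (IFN) at 1000 U/mL, for 8 h or 12 h. This gives 8 groups of 3 libraries, 24 in all: siFLuc mock, siFLuc IFN, siBOP1 mock and siBOP1 IFN, each at both times. All groups were transfected with siRNA, so untransfected cells were not analysed here. Nothing in the labels says that the 3 libraries of a group came from separate cultures, so the p-values measure the spread between these libraries, which may be technical.

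Replication is prepared in G1, when ORC, CDC6 and CDT1 load the MCM2-7 helicase onto origins. Toward S phase entry, cyclin E and CDK2 help to release E2F transcription factors from RB. E2F raises the transcription of most of the genes needed for the fork. Activated helicases (CDC45, MCM and GINS together) unwind the DNA, primase and polymerase alpha start each strand, and polymerases epsilon and delta extend it on the PCNA clamp. Many of these transcripts peak near the G1/S boundary in cycling cells. Interferons are known to slow the proliferation of many epithelial lines.

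Expression is given in TPM, transcript abundance per unit of length scaled to a total of 1000000 in each library, so levels can be compared between genes. TPM values are listed in the order of the libraries numbered 1, 2 and 4, as the columns of the table are named. Changes are differences of log2(TPM + 1), which understate the change of genes with low TPM. A gene is said to have risen or fallen where limma, fitted over all 24 libraries and 16062 genes, gave a Benjamini-Hochberg adjusted p below 0.05. "With the block" means the same fit with the library number as an added term within each time.

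The label checks came out as follows. BOP1 stood between 10.0 and 19.5 TPM in the 12 siBOP1 libraries and between 32.4 and 78.8 TPM in the 12 siFLuc libraries, and it fell in all 4 siRNA comparisons (log2 fold changes of -1.77, -2.0, -1.69 and -1.92 in mock cells at 8 h and 12 h and under IFN at 8 h and 12 h). All 6 interferon response genes checked rose in all 4 IFN comparisons; IFIT1 was at 0.68 to 3.81 TPM under mock and 553.5 to 1436 TPM under IFN. The epithelial keratins KRT8 and KRT18 ranged from 1785 to 3803 TPM, CDH1 from 23.8 to 105.4 TPM and KRT19 from 62.5 to 161.1 TPM, while EPCAM was low at 1.92 to 5.48 TPM. The leukocyte gene CD3E was listed at 0 in every library and PTPRC reached at most 0.021 TPM, but the lysosomal gene CD68 rose from 38.5 to 57.5 TPM under mock to 170.2 to 402.1 TPM under IFN. Among fibroblast genes COL1A1 stood at 5.37 to 19.3 TPM, and COL1A2, PDGFRB and DCN reached at most 0.084, 0.267 and 0.334 TPM. None of the 4 endothelial genes passed the filter. Mitochondrially encoded genes took 6.86% of TPM in the siFLuc mock 12 h library numbered 4 and 10.9% to 15.9% in the other 23. Depth cannot be read from TPM, so no counting interval or detection floor is given.

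The promoters of the replication genes carry E2F-type sequences far more often than promoters in general, and the windows of 4 genes are printed here because their transcripts lie at the ends of the IFN response described below. RefSeq (GRCh38.p14) gave 51 promoter windows of 300 bases, 250 before and 50 after the transcription start, for 40 of the 46 genes; MCM4, MCM5, GINS4, DSCC1, POLD3 and CCNE2 had no entry. The letters searched on both strands were TTTCCCGC, TTTCGCGC, TTTGCCGC and TTTGGCGC for E2F, CCAAT for the CCAAT box, and TTTGAA for the CHR element of late cell cycle genes. An E2F match was present in 23 of 51 windows (45.1%), against 779 of 15929 windows of all tested genes (4.89%) and 1164 of 35116 windows in the whole table (3.31%). CCAAT was found in 56.9% of the replication windows and 34.6% of those of tested genes. The CHR letters were found in 1.96% and 10.3%. The median GC content was 66.0% and 64.7%. A match is a description of the letters, not evidence that a factor binds there.

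The first 3 windows below belong to the genes with the largest mean fall under IFN that hold an E2F match, and the last to the gene with the largest mean rise among the 40. Each runs 5′ to 3′ on the coding strand from 250 bases before the start to 20 bases after it, with the E2F matches in capitals. The MCM6 window (chr2:135876424-135876693, minus strand) holds 2 identical 12-base runs, each read as TTTGGCGC and, overlapping it, as the reverse-strand match GCGCGAAA, so it counts 4 matches that begin 152, 148, 90 and 86 bases before the start.
MCM6: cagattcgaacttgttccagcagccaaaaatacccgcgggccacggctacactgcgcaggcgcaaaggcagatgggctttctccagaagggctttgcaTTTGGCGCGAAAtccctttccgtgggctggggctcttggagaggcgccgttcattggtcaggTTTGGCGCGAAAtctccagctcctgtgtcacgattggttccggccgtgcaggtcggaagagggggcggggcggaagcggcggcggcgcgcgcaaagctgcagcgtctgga
RFC3 (chr13:33817899-33818168, plus strand) and UHRF1 (chr19:4909251-4909520, plus strand, the first of its 3 listed starts) each hold 1 match, GCGGGAAA, which begins 55 bases before the start in RFC3 and 14 bases before it in UHRF1.
RFC3: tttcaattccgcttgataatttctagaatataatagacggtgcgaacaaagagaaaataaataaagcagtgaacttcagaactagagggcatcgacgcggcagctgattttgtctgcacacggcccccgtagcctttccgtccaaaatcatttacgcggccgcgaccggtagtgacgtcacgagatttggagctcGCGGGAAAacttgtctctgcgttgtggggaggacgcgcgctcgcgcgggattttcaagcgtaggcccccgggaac
UHRF1: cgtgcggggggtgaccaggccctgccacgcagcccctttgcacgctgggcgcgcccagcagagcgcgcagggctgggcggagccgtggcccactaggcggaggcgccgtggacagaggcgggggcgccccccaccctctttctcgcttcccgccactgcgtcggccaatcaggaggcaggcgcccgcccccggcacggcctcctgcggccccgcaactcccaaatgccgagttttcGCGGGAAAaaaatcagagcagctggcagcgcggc
GINS1 (chr20:25407423-25407692, plus strand) holds GCGCCAAA, which begins 5 bases after the start.
GINS1: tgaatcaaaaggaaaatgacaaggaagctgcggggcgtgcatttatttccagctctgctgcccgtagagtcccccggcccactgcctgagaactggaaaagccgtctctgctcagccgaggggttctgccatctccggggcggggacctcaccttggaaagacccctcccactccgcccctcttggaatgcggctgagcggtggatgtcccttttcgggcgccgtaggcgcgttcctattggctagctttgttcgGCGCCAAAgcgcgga

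Genes with and without a match had similar median IFN changes, and the difference was not tested. The mean IFN change over the 4 comparisons had a median of -0.23 among the 22 genes whose first listed window holds a match and of -0.20 among the 18 whose window does not. Among the genes with larger mean falls, MCM6, RFC3, UHRF1, GINS2 and E2F2 held a match. CCNE1, PRIM1 and RFC4, with mean IFN changes of -0.54, -0.53 and -0.44, had none in their window. POLA2 and GINS1, with mean changes of 0.13 and 0.16, each had 1, and ORC6, with 0.14, had none.

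Levels of the 46 genes spanned more than 2 orders of magnitude. PCNA, the sliding clamp, was the highest with a mean of 379.7 TPM over 24 libraries (range 278.5 to 496.6), above 98.0% of tested genes. MCM7, MCM4, TK1 and MCM5 followed at means of 129.8, 87.6, 86.0 and 84.4 TPM; the ranges of these 4 overlapped, and that of PCNA lay above them. E2F2 was the lowest at 2.23 TPM (1.01 to 3.27), with CCNE2 at 5.01 TPM (2.71 to 8.72) and CLSPN at 6.77 TPM (4.62 to 9.86); the ranges of E2F2 and CCNE2 overlapped.

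**Figure D1:**
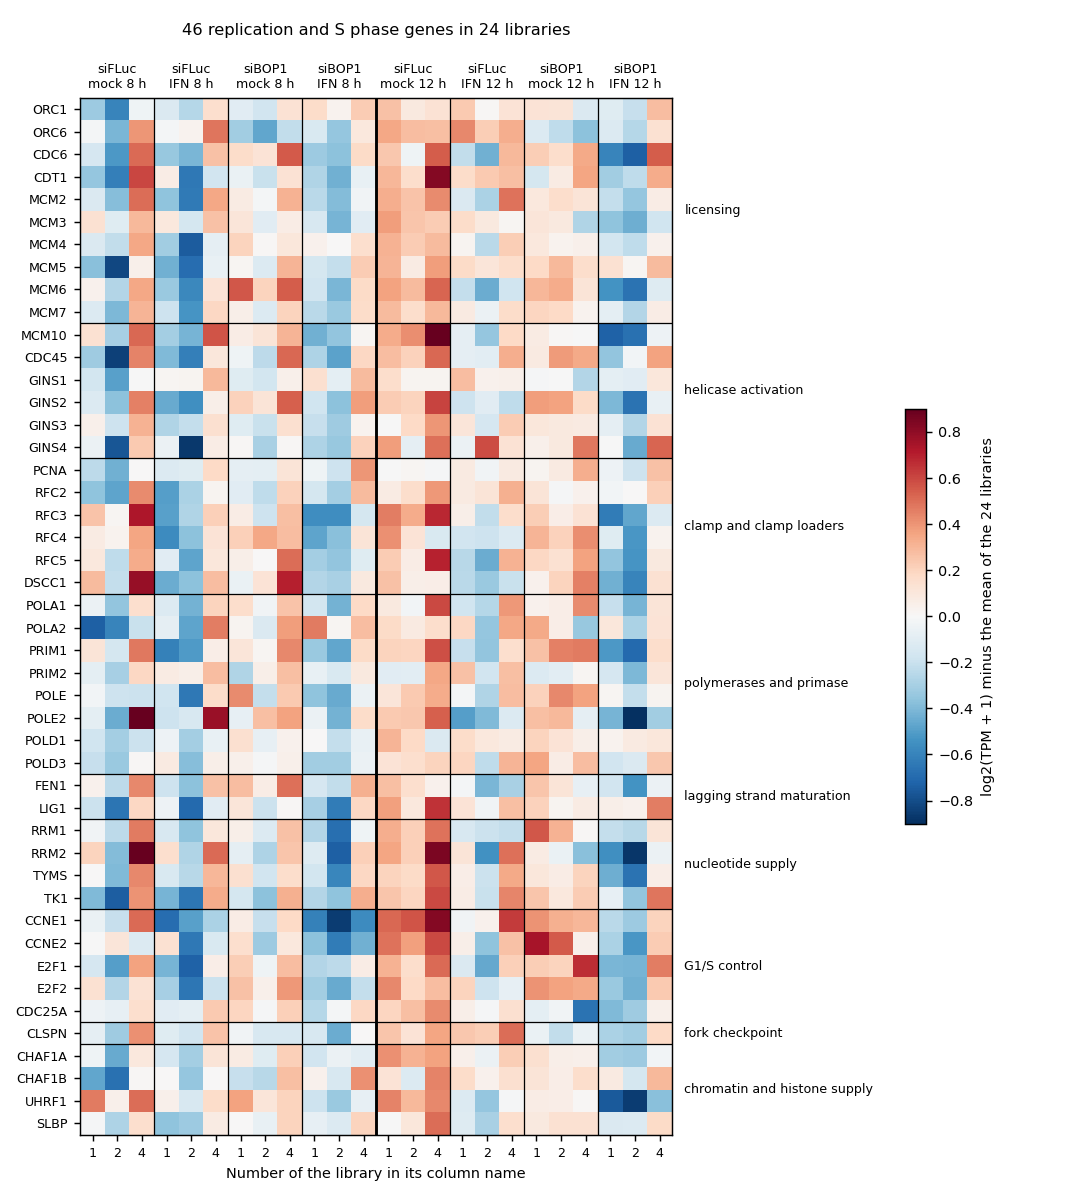
Log2(TPM + 1) of each of the 46 genes (rows, grouped by role) in each of the 24 libraries (columns, numbered 1, 2 and 4 within each group), as the difference from the gene's mean over all libraries; red is above and blue below, and colours saturate at 0.9. Within most groups the library numbered 4 is redder than those numbered 1 and 2, and at 12 h the IFN groups are bluer than the mock groups for many rows.

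The first comparison was of IFN with mock treatment, at each time and with each siRNA. A few replication genes fell and none rose. In siFLuc cells no gene passed the test at 8 h, and UHRF1 and MCM6 fell at 12 h. At 8 h 9 of 46 had an unadjusted p under 0.05, which was not counted over all genes. In siBOP1 cells CCNE1, E2F2, MCM6 and UHRF1 fell at 8 h, and UHRF1, MCM6, PRIM1, GINS2 and E2F2 fell at 12 h. The numbers called lower were thus 0, 2, 4 and 5 of 46, or 0%, 4.35%, 8.70% and 10.9%, beside 5.07%, 6.43%, 9.11% and 7.58% of all 16062 genes called lower in the same comparisons (siFLuc 8 h, siFLuc 12 h, siBOP1 8 h, siBOP1 12 h). By this count the share of the replication genes was below that of all genes in siFLuc cells at both times. It was near that of all genes in siBOP1 cells at 8 h and above it at 12 h, and no difference in shares was tested. The fit without the block counts differences between library numbers as spread, which weighs more on these genes at 8 h. Between numbers 82.6% of the 46 were called higher at 8 h, beside 8.55% of all genes higher and 8.72% lower. The count with the block, given next, takes these differences out. None of the 46 was called higher, beside 5.77%, 7.06%, 5.99% and 7.17% of all genes. In bulk RNA, fewer cells in S phase and less of a transcript per cell cannot be told apart.

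With the block the counts were larger. It called 7, 14, 14 and 22 of the 46 lower, or 15.2%, 30.4%, 30.4% and 47.8%, beside 12.7%, 15.8%, 20.4% and 16.6% of all genes; it also called GINS1 higher in siFLuc cells at 8 h (8.24% of all genes) and no gene higher in the other 3 comparisons (11.2%, 8.56% and 11.4% of all genes). Every gene called without the block was also called with it in that comparison. In siBOP1 cells at 12 h the 22 genes were CDC6, MCM3, MCM6, MCM7, MCM10, GINS2, RFC3, RFC4, RFC5, DSCC1, POLA1, PRIM1, POLE2, FEN1, RRM1, TYMS, CCNE1, CCNE2, E2F1, E2F2, CHAF1A and UHRF1.

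More of the replication genes lay below 0 than passed the test. Of the 46 genes, 34, 41, 40 and 41 had a log2 fold change below 0, or 73.9%, 89.1%, 87.0% and 89.1%, beside 64.4%, 57.9%, 69.1% and 60.2% of all genes. The median over the 46 was -0.10, -0.26, -0.24 and -0.29, and over all genes -0.09, -0.06, -0.14 and -0.08. At 8 h in siFLuc cells the replication genes thus sat where all genes sat, and at 12 h they sat 0.20 (siFLuc) and 0.22 (siBOP1) below the median gene. When the columns were rescaled by the median of ratios, 25, 36, 30 and 35 of the 46 lay below 0, and their medians were -0.0099, -0.20, -0.08 and -0.22. Medians of all genes then lay between -0.0137 and -0.0061. At 8 h in siFLuc cells the replication genes were then split nearly evenly around 0. The log2 differences from the median of all genes became -0.19 and -0.21 at 12 h, and went from -0.10 to -0.07 in siBOP1 cells at 8 h. Rescaling moved the median of all genes up by 0.14 in siBOP1 cells at 8 h, where 1 of the 46 was then called, and it left 3 called in siBOP1 cells at 12 h. The shares of all genes called or below 0 after rescaling were not counted.

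Several counts and medians changed when 1 library was left out. Such a fit, without the block, leaves the library numbers unbalanced between the groups, so differences between numbers enter the change. Medians of the 46 between same-numbered libraries (1, 2 and 4) were -0.11, -0.05 and -0.16 in siFLuc cells at 8 h. In siBOP1 cells at 12 h they were -0.37, -0.49 and 0.02. In siFLuc cells at 8 h the median log2 fold change of the 46 genes under IFN (-0.10 with all libraries) was 0.09 without the mock library numbered 4 and 0.07 without the IFN library numbered 2. It was -0.29 without the mock library numbered 2 and -0.28 without the IFN library numbered 4. The number called lower in siFLuc cells at 8 h was 3 without the IFN library numbered 4 and 2 without the mock library numbered 2; at 12 h it was 0 without the IFN library numbered 2, 1 without the mock library numbered 4 and 4 without the IFN library numbered 4. In siBOP1 cells at 8 h it was 0 without the IFN library numbered 2 or either of the mock libraries numbered 1 and 4, and 1 without the IFN library numbered 1. In siBOP1 cells at 12 h it was 1 without any one of the IFN or mock libraries numbered 1 and 2, and 11 without the IFN library numbered 4, where the median was -0.42. The share of all genes called was not counted in these fits. Whether the 46 differ from other genes in them therefore cannot be read from these counts.

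**Figure D2:**
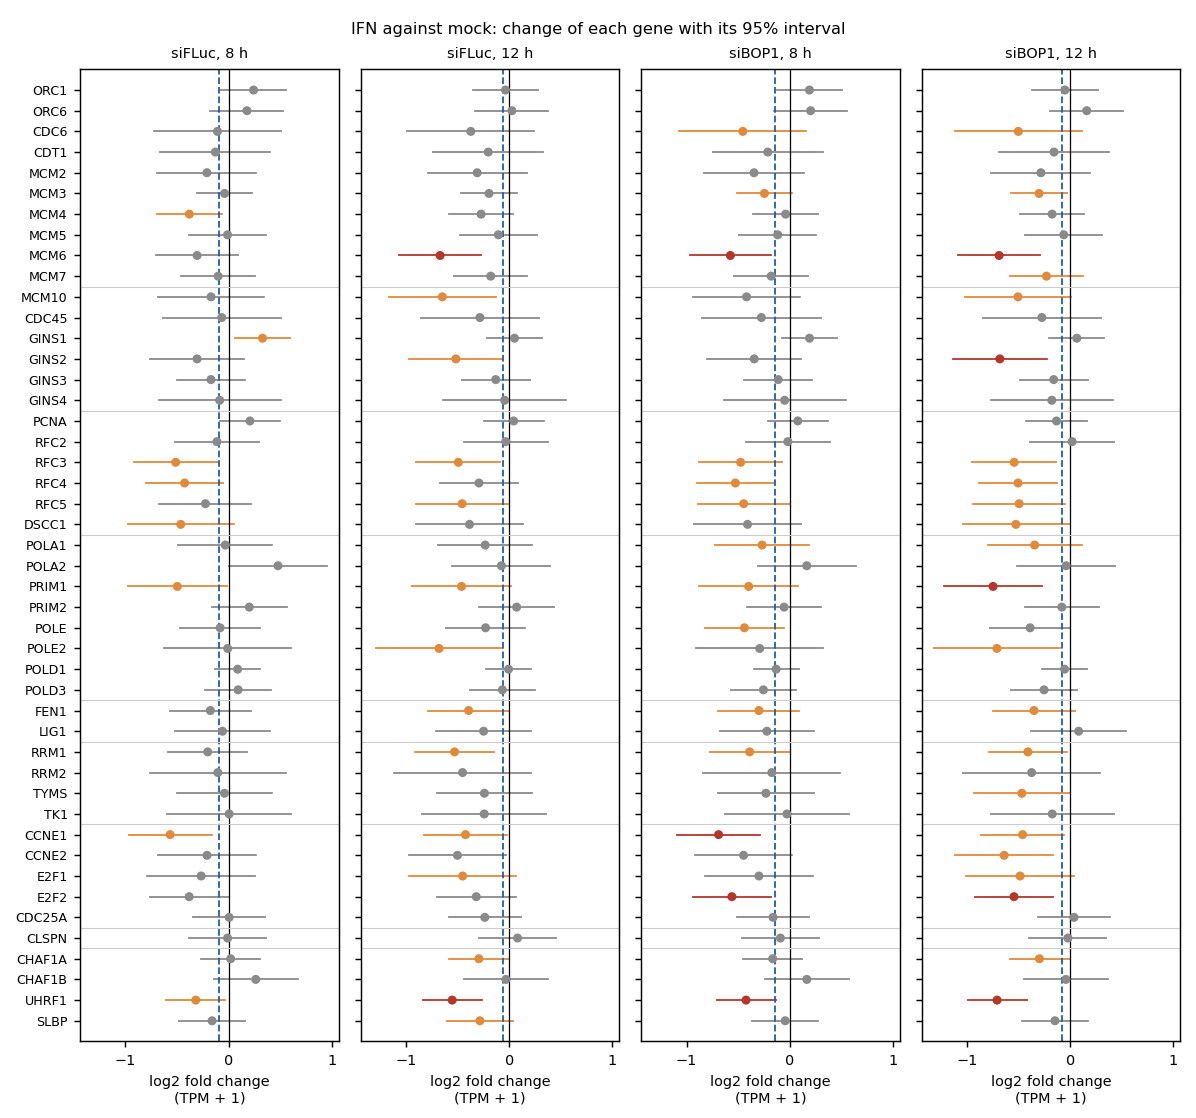
Log2 fold change of IFN against mock, on log2(TPM + 1), for each of the 46 genes in 4 panels (siRNA and time), with the 95% interval of the fit without the block as a bar. Red genes passed the test without the block, orange genes passed only with the block, grey genes passed neither, and the dashed line is the median of all tested genes; most points lie left of 0, and at 12 h most lie left of the dashed line.

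Where 1 library of each number is set against the other, each IFN comparison gives 3 differences, 12 in all. A total of 10 genes were lower in all 12: MCM6, CCNE1, PRIM1, RFC3, UHRF1, GINS2, E2F2, DSCC1, RFC5 and E2F1. These are 21.7% of the 46, beside 13.6% of all genes. No replication gene was higher in all 12, beside 8.64% of all genes. Lower in at least 10 were 30 of the 46, which was not counted over all genes. At the other end GINS1 and ORC6 were higher in 10 of 12.

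Licensing factors were led by MCM6, a subunit of the MCM2-7 helicase. In siFLuc cells MCM6 stood at 29.5, 23.7 and 36.8 TPM under mock at 8 h and at 22.5, 18.9 and 31.2 TPM under IFN. At 12 h it stood at 37.0, 35.1 and 41.7 TPM under mock and at 24.6, 20.7 and 25.2 TPM under IFN. The groups overlapped at 8 h, and at 12 h all 3 IFN libraries lay below all 3 mock libraries.

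In siBOP1 cells MCM6 stood at 42.8, 33.1 and 42.1 TPM under mock and at 25.3, 21.2 and 32.3 TPM under IFN at 8 h. At 12 h the values were 35.5, 36.3 and 31.2 TPM under mock and 19.4, 17.7 and 26.4 TPM under IFN. The IFN libraries lay below the mock libraries at both times. The log2 fold changes of MCM6 were -0.31 (SE 0.19, adjusted p 0.364) and -0.67 (adjusted p 0.0203) in siFLuc cells and -0.57 (adjusted p 0.0442) and -0.69 (adjusted p 0.0160) in siBOP1 cells, at 8 h and 12 h. The siFLuc 12 h call held in all 6 other settings and in 4 of 6 fits that left out 1 library, the siBOP1 12 h call in 6 and 2, and the siBOP1 8 h call in 3 and 2.

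MCM2, another helicase subunit, went the same way by less. In siFLuc cells its TPM were 32.9, 27.5 and 51.7 under mock and 28.0, 22.9 and 46.4 under IFN at 8 h, and 45.6, 43.6 and 48.9 against 33.1, 29.6 and 51.2 at 12 h. The siBOP1 values were 38.2, 35.9 and 45.2 against 30.4, 27.4 and 35.4 at 8 h, and 38.7, 40.5 and 39.4 against 31.2, 28.3 and 38.03 at 12 h. The groups overlapped in siFLuc cells, and in siBOP1 cells every IFN library lay below every mock library at both times; no MCM2 log2 fold change (-0.21, -0.31, -0.35 and -0.28) passed the test, with or without the block.

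CDC6, an ATPase that helps load the helicase, showed how much a library numbered 4 could weigh. Its TPM in siFLuc cells were 54.1, 41.9 and 86.2 under mock and 47.5, 45.1 and 72.5 under IFN at 8 h, and 71.5, 58.7 and 88.3 against 51.6, 44.3 and 73.9 at 12 h. With siBOP1 they were 67.9, 65.8 and 88.7 against 47.9, 46.5 and 68.0 at 8 h, and 70.4, 67.5 and 76.8 against 39.6, 35.9 and 88.2 at 12 h. At 12 h in siBOP1 cells the libraries numbered 1 and 2 were lower under IFN and the library numbered 4 was higher. The log2 fold changes of CDC6 were -0.11, -0.37, -0.45 and -0.50; the adjusted p was at least 0.290 without the block and 0.0324 and 0.0198 with it in siBOP1 cells.

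The other licensing genes did not pass the test under IFN without the block. MCM3, MCM4, MCM5 and MCM7, the remaining helicase subunits measured in this list, had log2 fold changes between -0.38 (MCM4, siFLuc, 8 h) and -0.01 (MCM5, siFLuc, 8 h), and those of CDT1, the loading factor that CDC6 works with, lay between -0.21 and -0.13. With the block MCM4 was called lower in siFLuc cells at 8 h, MCM3 in siBOP1 cells at both times and MCM7 in siBOP1 cells at 12 h. Neither ORC subunit passed the test under IFN, with or without the block: the log2 fold changes of ORC6 were 0.18, 0.03, 0.20 and 0.16, and those of ORC1 were 0.24, -0.04, 0.19 and -0.05.

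Among the genes of helicase activation, GINS2 had the largest mean decrease. GINS2 is a subunit of the GINS complex, which joins CDC45 and MCM in the active helicase. In siFLuc cells it stood at 12.3, 10.1 and 18.7 TPM under mock and 9.51, 8.83 and 13.9 TPM under IFN at 8 h, and at 15.9, 15.5 and 20.9 TPM against 11.6, 12.4 and 11.3 TPM at 12 h. With siBOP1 it stood at 15.6, 14.6 and 19.9 TPM against 11.7, 10.1 and 17.7 TPM at 8 h, and at 17.7, 17.5 and 15.2 TPM against 9.89, 8.10 and 12.7 TPM at 12 h. The groups overlapped at 8 h and were separate at 12 h with both siRNAs. The log2 fold changes of GINS2 were -0.31, -0.52, -0.34 and -0.68; the last passed the test (SE 0.22, adjusted p 0.0402), held in 3 of 6 other settings and in 1 of 6 fits without 1 library. With the block the siFLuc 12 h value passed too (adjusted p 0.00613).

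GINS1, of the same complex, had positive log2 fold changes of 0.33, 0.05, 0.19 and 0.06 and passed only with the block in siFLuc cells at 8 h (adjusted p 0.0135). GINS3 and GINS4 lay between -0.18 and -0.04. MCM10, which helps activate the loaded helicase, had -0.17, -0.65, -0.42 and -0.51 and passed only with the block, at 12 h (adjusted p of 0.00488 with siFLuc and 0.0211 with siBOP1). CDC45 had -0.07, -0.28, -0.27 and -0.28 and did not pass.

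No gene of the clamp and its loaders passed the test under IFN without the block. RFC3, a subunit of the RFC complex that places PCNA on DNA, was at 28.2, 23.8 and 39.6 TPM under mock and 16.5, 19.3 and 27.5 TPM under IFN in siFLuc cells at 8 h. At 12 h it was at 32.7, 29.95 and 38.3 TPM against 24.5, 20.1 and 26.4 TPM. In siBOP1 cells RFC3 was at 24.7, 20.5 and 28.5 TPM against 15.6, 15.6 and 21.0 TPM at 8 h, and at 27.5, 24.6 and 25.9 TPM against 14.9, 16.8 and 21.5 TPM at 12 h. All IFN libraries lay below all mock libraries at 12 h with both siRNAs, and the groups overlapped at 8 h. The RFC3 log2 fold changes were -0.51, -0.49, -0.48 and -0.54 (SE 0.19 each); the adjusted p lay between 0.0660 and 0.110, and with the block between 0.00143 and 0.00383.

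PCNA itself stood at 320.4, 278.5 and 377.0 TPM under mock and 346.4, 349.3 and 427.4 TPM under IFN in siFLuc cells at 8 h, and at 376.6, 381.9 and 373.8 TPM against 398.9, 368.9 and 399.5 TPM at 12 h. In BOP1-depleted cells it stood at 355.7, 353.7 and 407.8 TPM against 367.2, 331.1 and 496.6 TPM at 8 h, and at 382.5, 398.0 and 474.0 TPM against 365.7, 331.1 and 451.7 TPM at 12 h. The groups overlapped in all 4 comparisons, and the log2 fold changes of 0.21, 0.04, 0.08 and -0.13 did not pass with or without the block; the siBOP1 8 h value turned to -0.02 with the libraries numbered 1 and 2 alone. RFC4, RFC5 and DSCC1 (a subunit of an alternative clamp loader) had log2 fold changes between -0.53 and -0.23 and passed only with the block, RFC4 and RFC5 each in 3 comparisons and DSCC1 in 2. RFC2 lay between -0.11 and 0.02.

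PRIM1, the catalytic subunit of primase, had the largest decrease of any replication gene in a single comparison. In siFLuc cells it was at 24.3, 19.9 and 31.5 TPM under mock and 14.3, 15.4 and 23.3 TPM under IFN at 8 h, and at 25.8, 25.7 and 33.9 TPM against 19.2, 17.2 and 24.9 TPM at 12 h. With siBOP1, PRIM1 was at 24.1, 22.6 and 30.5 TPM against 17.5, 15.9 and 25.2 TPM at 8 h, and at 27.0, 31.0 and 31.3 TPM against 15.3, 13.4 and 25.1 TPM at 12 h. The groups were separate at 12 h with both siRNAs, with the siBOP1 IFN library numbered 4 well above its 2 companions. The PRIM1 log2 fold changes were -0.50, -0.46, -0.40 and -0.75; only the last passed without the block (SE 0.23, adjusted p 0.0312), held in 4 of 6 other settings and in 1 of 6 fits without 1 library, and all 4 passed with the block.

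PRIM2, the regulatory subunit of primase, lay between -0.08 and 0.20. POLA2, an accessory subunit of polymerase alpha, had the highest value of any replication gene under IFN, 0.48 in siFLuc cells at 8 h (adjusted p 0.217), and -0.08, 0.17 and -0.04 elsewhere. POLE2, an accessory subunit of polymerase epsilon, had -0.68 and -0.71 at 12 h in siFLuc and siBOP1 cells and passed only with the block (adjusted p 0.0230 and 0.0176), against -0.01 and -0.29 at 8 h. POLA1, POLE, POLD1 and POLD3 lay between -0.44 and 0.09; with the block POLA1 passed in siBOP1 cells at both times and POLE there at 8 h. Of the lagging strand genes, FEN1, the flap nuclease, had -0.18, -0.39, -0.30 and -0.35 and passed only with the block in the last 3, and LIG1, the ligase that seals Okazaki fragments, lay between -0.25 and 0.08.

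The nucleotide supply genes of the list did not pass without the block. RRM2, the regulated subunit of ribonucleotide reductase, stood at 73.3, 48.3 and 120.0 TPM under mock and 71.0, 52.8 and 91.0 TPM under IFN in siFLuc cells at 8 h, and at 81.9, 73.9 and 115.3 TPM against 69.0, 43.3 and 90.2 TPM at 12 h. With siBOP1, RRM2 stood at 60.1, 52.4 and 75.8 TPM against 58.7, 37.9 and 74.2 TPM at 8 h, and at 67.3, 61.1 and 48.9 TPM against 43.2, 34.3 and 61.3 TPM at 12 h. The spread within groups was as wide as the difference between them, and all 4 pairs of groups overlapped. The RRM2 log2 fold changes of -0.10, -0.45, -0.17 and -0.37 had an SE of 0.32. RRM1, its partner subunit, had -0.20, -0.53, -0.39 and -0.41 (SE 0.18) and passed only with the block in the last 3. TYMS, which makes thymidylate, passed only with the block in siBOP1 cells at 12 h (-0.47, adjusted p 0.00270), and TK1 lay between -0.24 and 0.00.

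The regulators of S phase entry gave 2 of the called genes. CCNE1, a cyclin that activates CDK2, was at 15.8, 14.2 and 23.9 TPM under mock and 9.88, 11.5 and 13.4 TPM under IFN in siFLuc cells at 8 h, and at 24.0, 24.9 and 30.02 TPM against 16.1, 17.0 and 26.0 TPM at 12 h. With siBOP1, CCNE1 was at 17.4, 14.2 and 18.8 TPM against 10.5, 8.68 and 10.8 TPM at 8 h, and at 22.2, 20.9 and 20.5 TPM against 13.8, 12.98 and 19.2 TPM at 12 h. All IFN libraries lay below all mock libraries except in siFLuc cells at 12 h, where the IFN library numbered 4 exceeded 2 mock libraries. The CCNE1 log2 fold changes were -0.57 (adjusted p 0.0671), -0.42, -0.69 (SE 0.19, adjusted p 0.0186) and -0.46 (adjusted p 0.121); the call at 8 h in siBOP1 cells held in all 6 other settings and in 3 of 6 fits without 1 library, and all 4 passed with the block.

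CCNE2, the second E-type cyclin, was at 4.79, 5.26 and 4.33 TPM under mock and 5.38, 2.71 and 4.28 TPM under IFN in siFLuc cells at 8 h, and at 7.16, 6.49 and 7.77 TPM against 5.00, 3.52 and 5.95 TPM at 12 h. The siBOP1 values were 5.43, 3.63 and 5.18 TPM against 3.50, 2.75 and 3.30 TPM at 8 h, and at 8.72, 7.51 and 4.99 TPM against 3.77, 3.03 and 5.81 TPM at 12 h. The IFN libraries lay below the mock libraries in siFLuc cells at 12 h and in siBOP1 cells at 8 h, and overlapped them in the other 2 comparisons. The CCNE2 log2 fold changes were -0.21, -0.50, -0.45 and -0.64, and only the last passed with the block (adjusted p 0.0273; 0.0637 without it).

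E2F1, the first of the activating E2F factors, was at 17.0, 13.2 and 24.8 TPM under mock and 14.02, 11.1 and 19.9 TPM under IFN in siFLuc cells at 8 h, and at 24.0, 21.3 and 27.6 TPM against 17.3, 13.6 and 22.3 TPM at 12 h. Values with siBOP1 were 22.4, 18.5 and 23.4 TPM against 15.7, 16.01 and 19.9 TPM at 8 h, and at 22.4, 22.1 and 30.8 TPM against 14.1, 14.01 and 26.6 TPM at 12 h. The groups overlapped in all 4 comparisons although each numbered pair was lower under IFN. Its log2 fold changes of -0.27, -0.45, -0.30 and -0.49 passed only with the block at 12 h (adjusted p 0.0138 and 0.00872).

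E2F2, a related activator with far lower TPM, was at 2.48, 1.64 and 2.46 TPM under mock and 1.56, 1.01 and 1.77 TPM under IFN in siFLuc cells at 8 h, and at 3.27, 2.58 and 2.83 TPM against 2.62, 1.78 and 2.0 TPM at 12 h. With siBOP1, E2F2 was at 2.80, 2.26 and 3.15 TPM against 1.55, 1.31 and 1.72 TPM at 8 h, and at 3.18, 3.06 and 3.01 TPM against 1.51, 1.35 and 2.72 TPM at 12 h. The IFN libraries lay below the mock libraries in siBOP1 cells at both times and overlapped them in siFLuc cells. The E2F2 log2 fold changes were -0.38, -0.32, -0.56 (adjusted p 0.0432) and -0.55 (SE 0.18, adjusted p 0.04997). Each call held in 2 of 6 other settings and in 1 of 6 fits without 1 library. CDC25A, the phosphatase that activates CDK2, lay between -0.24 and 0.04, and CLSPN, the fork checkpoint adaptor, between -0.09 and 0.08; neither passed.

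UHRF1, which couples replication to maintenance of DNA methylation, was the replication gene called most firmly under IFN. In siFLuc cells it stood at 36.0, 26.6 and 37.0 TPM under mock and 26.6, 23.2 and 29.0 TPM under IFN at 8 h, and at 35.5, 31.8 and 35.01 TPM against 23.6, 20.0 and 25.5 TPM at 12 h. In siBOP1 cells it stood at 33.4, 27.9 and 29.7 TPM against 22.5, 20.2 and 24.4 TPM at 8 h, and at 27.1, 26.9 and 26.0 TPM against 14.8, 13.8 and 19.6 TPM at 12 h. The groups were separate except in siFLuc cells at 8 h. The UHRF1 log2 fold changes were -0.32 (adjusted p 0.162), -0.55 (0.00844), -0.42 (0.0415) and -0.71 (0.000956), with an SE of 0.14. The siBOP1 12 h call held in all 6 other settings and all 6 fits without 1 library; the siFLuc 12 h call held in 5 of 6 settings and was lost without the IFN library numbered 2 (adjusted p 0.0625), and the siBOP1 8 h call held in 4 of 6 settings and 2 of 6 fits without 1 library.

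None of the other chromatin genes passed the test under IFN without the block. CHAF1A, the large subunit of the CAF-1 histone chaperone, had log2 fold changes of 0.02, -0.29, -0.17 and -0.30 and passed only with the block at 12 h, and CHAF1B, its middle subunit, had 0.26, -0.03, 0.17 and -0.04. SLBP, which binds the stem-loop of replication-dependent histone mRNAs, had -0.16, -0.28, -0.04 and -0.15 and passed only with the block in siFLuc cells at 12 h.

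**Figure D3:**
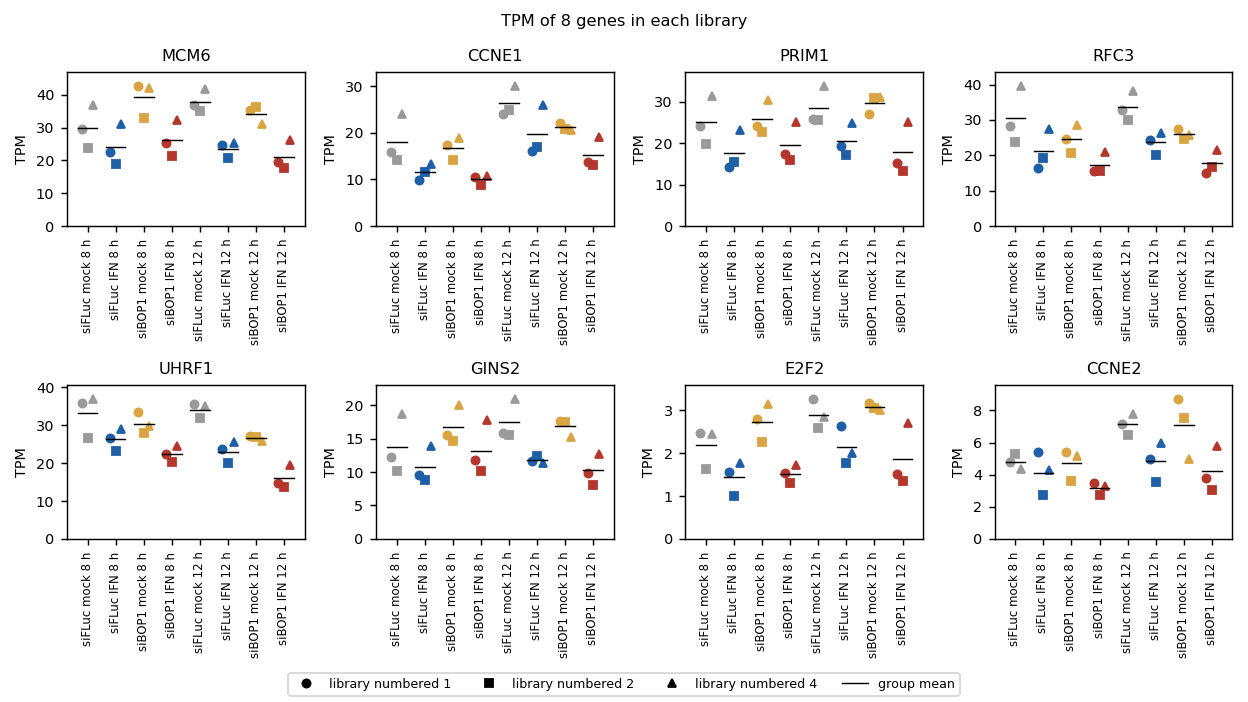
TPM of the 8 genes with the largest mean change under IFN in each of the 24 libraries; circles, squares and triangles are the libraries numbered 1, 2 and 4, and the horizontal bar is the group mean. For UHRF1, MCM6 and GINS2 at 12 h every IFN point lies below every mock point with both siRNAs, and many triangles lie above the circles and squares of their group.

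Counting genes whose 3 IFN libraries all lay below the 3 mock libraries gave 1, 15, 10 and 15 of 46 (2.17%, 32.6%, 21.7% and 32.6%), beside 18.9%, 15.1%, 26.7% and 19.2% of all genes. The share was thus below that of all genes at 8 h and above it at 12 h. In the other direction the counts were 1 (GINS1), 0, 0 and 0, beside 9.92%, 11%, 10.1% and 12.4% of all genes. The median change was also taken by role, with no test between roles. At 12 h in siBOP1 cells it ran from -0.50 for the clamp and its loaders and -0.49 for G1/S control to -0.14 for lagging strand maturation and -0.02 for CLSPN, the sole gene of the fork checkpoint. At 8 h in siFLuc cells it ran from -0.33 for the clamp and its loaders to 0.04 for polymerases and primase.

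The next comparison was whether the response of these genes to IFN differed between siBOP1 and siFLuc cells. No difference of responses passed the test at either time: 0 of 46 genes had an adjusted p under 0.05 and 0 had an unadjusted p under 0.05, beside 0 of 16062 genes called and 2.20% (8 h) and 1.61% (12 h) at an unadjusted p under 0.05. With the block the lowest adjusted p among the 46 was 0.956 at 8 h and 0.999 at 12 h, and 2 and 0 genes had an unadjusted p under 0.05. Without the block, the 95% interval of such a difference reached a median of 0.56 log2 units to either side. With an interval of that width, a smaller estimate could not be told from 0. With the block the SE at 8 h was 0.21 in place of 0.42 for CDC6 and 0.22 in place of 0.24 for CDC25A.

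The lowest unadjusted p at 8 h belonged to POLD3, a polymerase delta subunit, with a difference of -0.35 (95% interval -0.79 to 0.10), to MCM4 with 0.34 (-0.10 to 0.79) and to POLD1, the catalytic subunit of polymerase delta, with -0.22 (-0.53 to 0.09). At 12 h they were CDC25A with 0.27 (-0.22 to 0.77), LIG1 with 0.33 (-0.32 to 0.98) and PCNA with -0.18 (-0.59 to 0.24). The value of CDC25A turned to -0.09 with the libraries numbered 1 and 2 alone. As a description, the IFN changes of the 46 genes in siFLuc and siBOP1 cells, which share no libraries but share the library numbers, correlated with Pearson r of 0.80 at 8 h and 0.85 at 12 h across genes, beside 0.85 and 0.86 over all tested genes. They had the same sign for 40 of 46 genes at each time, beside 78.4% and 78.8% of all genes. The response in siBOP1 cells minus that in siFLuc cells lay below 0 for 37 (8 h) and 29 (12 h) of 46. These are 80.4% and 63.0%, beside 59.6% and 52.4% of all genes, and the direction was not tested as a set. Taken by library number (1, 2 and 4), the medians of the 46 were -0.13, -0.24 and 0.04 at 8 h. At 12 h they were -0.15, -0.16 and 0.25, so the libraries numbered 4 went the other way at both times.

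The response at 12 h against that at 8 h was compared in the same way. No replication gene passed with either siRNA. None of the 46 had an unadjusted p under 0.05, beside 3.58% (siFLuc) and 3.75% (siBOP1) of all genes. With the block 6 (siFLuc) and 2 (siBOP1) did, and the lowest adjusted p was 0.552 and 0.516. Over all genes 1 was called lower in siFLuc cells (0.00623%) and 0 in siBOP1 cells, and with the block 4 in each (0.0125% lower and 0.0125% higher; 0.0187% and 0.00623%). In siFLuc cells the lowest p belonged to POLA2 with -0.55 (-1.23 to 0.12), POLE2 with -0.67 (-1.54 to 0.20) and CHAF1A with -0.31 (-0.72 to 0.10). In siBOP1 cells it belonged to UHRF1 with -0.29 (-0.69 to 0.12), ORC1 with -0.24 (-0.69 to 0.21) and GINS2 with -0.34 (-0.98 to 0.31). So the larger medians at 12 h are not shown to differ from those at 8 h gene by gene. The response at 12 h minus that at 8 h lay below 0 for 35 (siFLuc) and 33 (siBOP1) of 46. These are 76.1% and 71.7%, beside 44.7% and 38.9% of all genes, and the direction was not tested as a set. Taken by library number (1, 2 and 4), the medians of the 46 were -0.14, -0.28 and -0.09 with siFLuc. With siBOP1 they were -0.17, -0.25 and 0.17.

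BOP1 depletion itself was then compared with control siRNA under each treatment and time. No replication gene passed the test in any of the 4 comparisons. For all genes 0.666% and 0.697% were called lower in mock cells at 8 h and 12 h and 0.760% and 0.268% under IFN, with 1.49%, 0.903%, 1.25% and 0.392% called higher. At an unadjusted p under 0.05 there were 3, 5, 2 and 5 of 46, which was not counted over all genes. The medians of the 46 genes were 0.12 and -0.11 in mock cells and 0.00 and -0.15 under IFN, so the signs at 8 h and 12 h differed in mock cells, which was not tested; without the siFLuc mock 8 h library numbered 2 the mock 8 h median was -0.02. Medians of all genes were 0.03, 0.00, -0.01 and -0.01. Of the 46 genes, 11, 37, 22 and 42 lay below 0 (23.9%, 80.4%, 47.8% and 91.3%). The shares of all genes were 44.3%, 49.3%, 52.1% and 52.6%. At 12 h most of the 46 were thus lower with siBOP1 under both treatments, which was not tested as a set. Medians of the 46 between same-numbered libraries (1, 2 and 4) at 12 h were -0.09, -0.01 and -0.33 in mock cells. Under IFN they were -0.21, -0.21 and -0.05. The mock shift thus lay mostly in the libraries numbered 4, where the siFLuc library took 6.86% of TPM in mitochondrially encoded genes.

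Without the siBOP1 IFN 12 h library numbered 4, UHRF1 passed under IFN at 12 h. The block gave some calls here. In mock cells at 8 h it called 4 of 46 genes higher (5.91% of all genes) and none lower (2.58%): POLA2, POLD1, MCM5 and MCM6, with log2 differences of 0.60, 0.26, 0.45 and 0.39. Under IFN at 8 h it called MCM4 and MCM5 higher (0.45 and 0.34; 4.97% of all genes) and none lower (3.84%). At 12 h it called 5 of 46 lower in mock cells (3.35% of all genes), namely CDC25A, ORC6, UHRF1, MCM3 and MCM10, and 5 lower under IFN (1.61%), namely UHRF1, MCM3, CLSPN, ORC6 and TYMS. None was called higher at 12 h with the block (4.31% and 2.16% of all genes).

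RRM2 had the largest mean difference between the siRNAs, with log2 values of -0.27, -0.59, -0.34 and -0.51 (mock 8 h, mock 12 h, IFN 8 h, IFN 12 h) and none past the test with or without the block. At 12 h under mock its siBOP1 values of 67.3, 61.1 and 48.9 TPM lay below the siFLuc values of 81.9, 73.9 and 115.3 TPM, and in the other 3 comparisons the groups overlapped. ORC6, a subunit of the origin recognition complex, had a negative difference in all 4 comparisons. Its TPM in mock cells were 27.4, 20.7 and 36.9 with siFLuc and 22.2, 19.8 and 23.7 with siBOP1 at 8 h, and 35.7, 34.0 and 33.7 against 25.5, 23.5 and 21.3 at 12 h. Under IFN they were 27.4, 28.5 and 39.3 against 25.1, 21.6 and 29.8 at 8 h, and 37.8, 32.5 and 35.2 against 25.5, 23.1 and 30.7 at 12 h. The groups overlapped at 8 h and were separate at 12 h under both treatments. The ORC6 log2 differences were -0.32, -0.54, -0.30 and -0.41 (SE 0.17; adjusted p 0.457, 0.130, 0.484 and 0.432; 0.00628 and 0.0464 with the block at 12 h).

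MCM3 was at 52.3, 44.1 and 58.5 TPM with siFLuc and 51.3, 44.3 and 49.99 TPM with siBOP1 in mock cells at 8 h, and at 62.0, 56.8 and 56.0 TPM against 51.3, 50.6 and 39.3 TPM at 12 h. Under IFN it was at 50.9, 42.5 and 57.4 TPM against 43.0, 35.4 and 44.4 TPM at 8 h, and at 53.4, 50.6 and 48.3 TPM against 36.7, 34.8 and 41.9 TPM at 12 h. The groups were separate at 12 h under both treatments. The MCM3 log2 differences were -0.08, -0.31, -0.29 and -0.42 (SE 0.13, adjusted p from 0.199 to 0.904).

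CLSPN was at 6.23, 5.13 and 9.16 TPM with siFLuc and 6.51, 5.94 and 5.93 TPM with siBOP1 in mock cells at 8 h, and at 8.09, 7.34 and 8.77 TPM against 6.33, 5.56 and 6.33 TPM at 12 h. Under IFN it was at 6.10, 5.80 and 8.13 TPM against 5.93, 4.62 and 6.67 TPM at 8 h, and at 8.04, 7.92 and 9.86 TPM against 5.28, 5.16 and 7.68 TPM at 12 h. It was lower and separate at 12 h under both treatments, with log2 differences of -0.36 and -0.46, and overlapped at 8 h, with -0.11 and -0.19. UHRF1, RFC3 and CCNE1, whose values stand above, had differences of -0.12, -0.34, -0.22 and -0.50, of -0.28, -0.35, -0.25 and -0.40, and of -0.07, -0.29, -0.19 and -0.33.

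MCM10 was at 17.3, 12.6 and 22.8 TPM with siFLuc and 16.5, 17.1 and 19.6 TPM with siBOP1 in mock cells at 8 h, and at 20.1, 21.3 and 31.0 TPM against 16.5, 15.8 and 15.6 TPM at 12 h. Under IFN it was at 12.5, 11.5 and 23.6 TPM against 11.4, 12.0 and 15.9 TPM at 8 h, and at 14.8, 12.1 and 17.9 TPM against 9.06, 9.47 and 15.2 TPM at 12 h. The groups were separate only in mock cells at 12 h, where the log2 difference was -0.54 (SE 0.25, adjusted p 0.362; 0.0420 with the block). Among the 46 genes, 13 (28.3%) lay lower in siBOP1 mock cells at 12 h, beside 7.55% of all genes, and 4 (8.70%) under IFN at 12 h, beside 5.61%. None lay lower at 8 h, beside 7.7% of all genes in mock cells and 9.92% under IFN. The groups were separate with siBOP1 higher for 2 genes in mock cells at 8 h (POLA2 and POLD1; 12.4% of all genes), 1 in mock cells at 12 h (PCNA; 10.4%), 1 under IFN at 8 h (MCM4; 9.84%) and 0 under IFN at 12 h (7.43%).

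**Figure D4:**
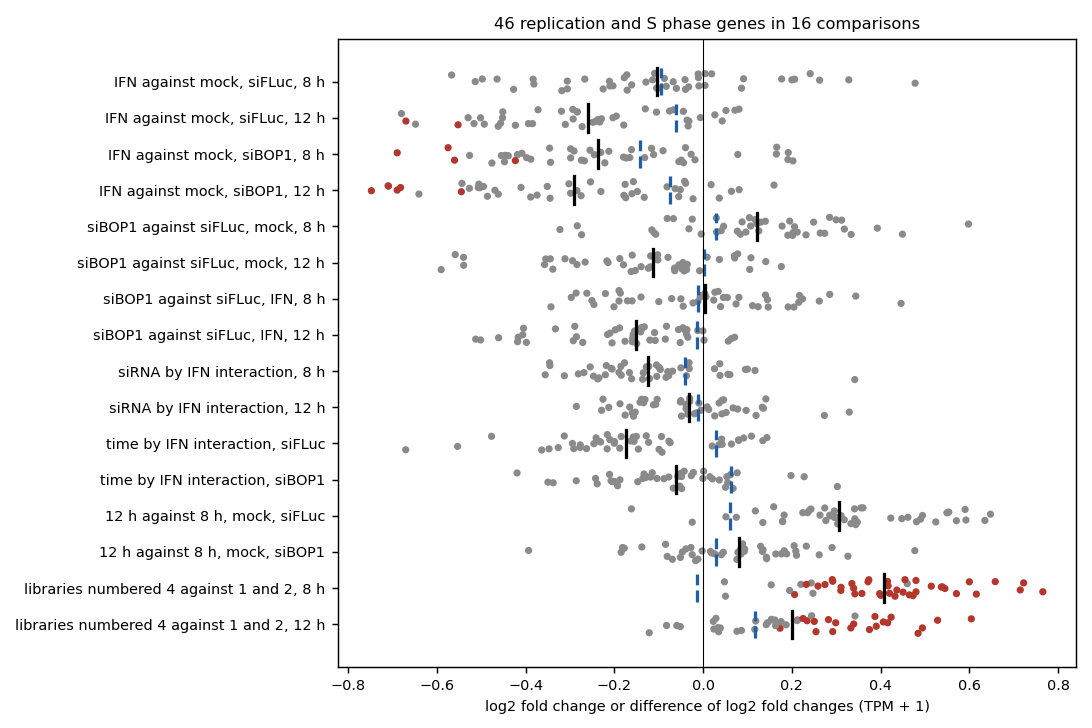
Log2 fold changes (or differences of log2 fold changes for the 4 interactions) of the 46 genes in 16 comparisons; each point is a gene, red where it passed the test in that comparison, the solid bar is the median of the 46 and the dashed bar the median of all tested genes. The largest shift of the 46 against all genes is between library numbers at 8 h, with a median of 0.41 against -0.01.

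Mock cells at 12 h against 8 h show how these transcripts drifted without IFN. In siFLuc cells 44 of 46 genes were above 0 with a median of 0.31, beside 0.06 for all genes, and in siBOP1 cells 30 were above 0 with a median of 0.08, beside 0.03. No replication gene passed with either siRNA (0.118% and 0.137% of all genes were called higher, 0.0125% and 0.0934% lower). At an unadjusted p under 0.05 there were 12 and 2 of 46, which was not counted over all genes. With the block 14 of 46 (30.4%) were called higher in siFLuc cells, beside 6.49% of all genes, and none in siBOP1 cells (2.93%). None was called lower with the block (1.88% and 1.57%). The 14 were ORC1, MCM5, MCM7, CDC45, RFC2, POLA1, POLA2, POLD1, LIG1, TK1, CCNE1, E2F1, CHAF1A and CHAF1B. The block was set within each time, so numbers were not paired across times. It takes the spread between numbers out of the error, although that spread remains part of a comparison between times. The p-values with the block over time may therefore be too small. Without the siFLuc mock 12 h library numbered 4, which also had the lowest mitochondrial share, POLD1 passed without the block. The groups were separate with 12 h higher for 12 of 46 genes (26.1%) with siFLuc, beside 10.6% of all genes, and for 3 with siBOP1 (CCNE1, GINS4 and POLD3), beside 11.7%; 0 and 2 (CDC25A and UHRF1) were separate with 12 h lower, beside 5.02% and 7.51%. Whether the siRNAs differ in this drift was not tested.

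CCNE2 and CCNE1 had the largest mean drift over both siRNAs. For CCNE2 the siFLuc mock values ranged from 4.33 to 5.26 TPM at 8 h and from 6.49 to 7.77 TPM at 12 h, with no overlap, and the log2 difference was 0.49 (SE 0.23, adjusted p 0.364); in siBOP1 cells it was 0.48 (adjusted p 0.516) and the groups overlapped. For CCNE1 it was 0.55 and 0.33 (SE 0.19), with groups separate in both siRNAs. TK1, the salvage kinase for thymidine, stood at 62.8, 49.3 and 110.2 TPM at 8 h and 98.9, 95.4 and 126.0 TPM at 12 h in siFLuc mock cells, which overlap, and at 74.6, 64.1 and 104.1 TPM and 99.2, 89.1 and 97.6 TPM in siBOP1 mock cells. Its log2 differences were 0.59 and 0.26 (SE 0.29).

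MCM5 stood at 63.5, 46.4 and 85.5 TPM at 8 h and 102.3, 87.1 and 107.8 TPM at 12 h in siFLuc mock cells, with no overlap, and at 83.5, 75.8 and 102.6 TPM and 93.6, 101.3 and 92.5 TPM in siBOP1 mock cells. The MCM5 log2 differences were 0.63 (SE 0.18, adjusted p 0.136; 0.000914 with the block) and 0.14. CDC45 stood at 12.2, 8.16 and 21.4 TPM and then 18.9, 18.0 and 22.5 TPM with siFLuc, and at 15.0, 12.9 and 22.5 TPM and then 16.4, 20.4 and 19.8 TPM with siBOP1. The CDC45 groups overlapped with both siRNAs, and its log2 differences were 0.57 and 0.19 (SE 0.27).

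LIG1 stood at 21.5, 15.3 and 28.3 TPM and then 32.2, 26.5 and 39.4 TPM in siFLuc mock cells, and at 26.8, 21.5 and 24.9 TPM and then 28.8, 25.2 and 26.1 TPM in siBOP1 mock cells, with log2 differences of 0.59 and 0.13. CHAF1B stood at 4.96, 4.16 and 7.31 TPM and then 7.95, 6.56 and 10.2 TPM with siFLuc, and at 6.12, 5.92 and 8.93 TPM and then 7.92, 7.60 and 8.21 TPM with siBOP1, with 0.52 and 0.18. GINS4 stood at 12.9, 7.43 and 15.9 TPM and then 17.7, 12.6 and 19.3 TPM with siFLuc, and at 13.5, 10.8 and 13.5 TPM and then 13.8, 14.3 and 19.0 TPM with siBOP1, with 0.46 and 0.29. Of these 3 genes only GINS4 with siBOP1 had separate groups, and none passed without the block.

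The number of the library, which the labels do not explain, went with a larger shift of these genes at 8 h than siRNA, IFN or time did. At 8 h 38 of 46 genes (82.6%) were higher in the libraries numbered 4 than in those numbered 1 and 2, and none was lower, beside 8.55% of all genes called higher and 8.72% called lower. All 46 lay above 0, with a median of 0.41 beside -0.01 for all genes. TK1 had the largest value, 0.77 (SE 0.08, adjusted p 2.11e-05), followed by POLE2 (0.72) and CDC45 (0.71), and CCNE2 (0.05) and POLD1 (0.05) the smallest. At 12 h 21 of 46 were higher, beside 31.3% of all genes, and none was lower (9.09%), with a median of 0.20 beside 0.12; after rescaling by the median of ratios, 7 were higher and 3 lower. CDC6 led at 12 h with 0.60 (SE 0.11, adjusted p 0.000511), then E2F1 with 0.53 and POLA1 with 0.49.

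The median deviation of the 46 genes from their 24-library mean shows the same by library. It was 0.35, 0.15, 0.24 and 0.16 in the 4 libraries numbered 4 at 8 h and -0.34, -0.38, -0.10 and -0.36 in the 4 numbered 2 (siFLuc mock, siFLuc IFN, siBOP1 mock, siBOP1 IFN). At 8 h the 30 G2 and mitosis genes of a second list moved in the same libraries. They stood at 0.56, 0.24, 0.42 and 0.02 in those numbered 4 and -0.29, -0.44, -0.14 and -0.67 in those numbered 2. All genes stayed between -0.13 and 0.04 in these libraries. At 12 h the 2 lists did not always move together. In siBOP1 mock cells numbered 1, 2 and 4 the G2 and mitosis genes stood at 0.50, 0.33 and -0.11. The 46 genes stood there at 0.13, 0.09 and 0.12. Each group holds 1 library of each number, so the number is balanced over siRNA and treatment. What the number stands for, and its part in the results, was not tested beyond the block.

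**Figure D5:**
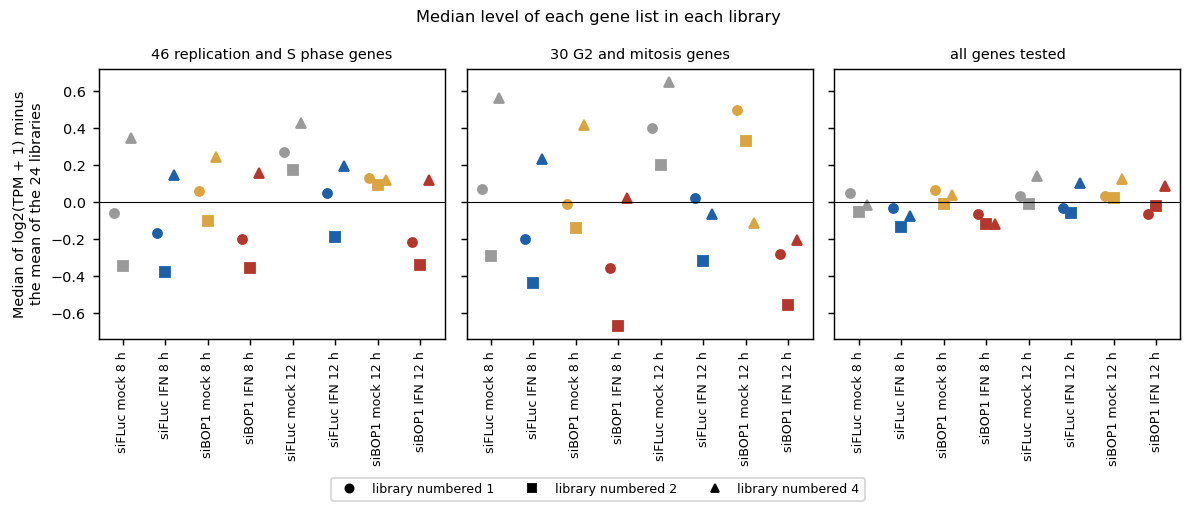
Median, over the genes of a list, of log2(TPM + 1) minus the gene's mean over 24 libraries, for each library: 46 replication and S phase genes, 30 G2 and mitosis genes and all tested genes. At 8 h the triangles (libraries numbered 4) lie above the circles and squares of every group in the first 2 panels, and in the third panel all libraries lie between -0.13 and 0.14.

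Related genes outside the 46 were followed in 6 lists. Their counts stand beside 5.07%, 6.43%, 9.11% and 7.58% of all genes called lower under IFN, in the order siFLuc 8 h, siFLuc 12 h, siBOP1 8 h, siBOP1 12 h. Called higher were 5.77%, 7.06%, 5.99% and 7.17%, and lower with the block 12.7%, 15.8%, 20.4% and 16.6%. No list was tested against these shares. Of 15 other licensing and origin firing genes, 1, 1, 1 and 2 fell under IFN (siFLuc 8 h, siFLuc 12 h, siBOP1 8 h, siBOP1 12 h) and none rose, with medians of -0.13, -0.25, -0.26 and -0.25. DONSON, a factor of helicase assembly, led with -0.43, -0.20, -0.72 and -0.62 (adjusted p 0.0381, 0.341, 0.000485 and 0.00208); DBF4, the activator of the CDC7 kinase, and ORC5 had mean changes of -0.46 and -0.41 and passed only with the block. Of 20 other replisome genes, 0, 3, 3 and 4 fell and 1, 0, 0 and 1 rose. TOP2A, the topoisomerase that separates daughter duplexes, had -0.23, -0.67, -0.48 and -0.83 and fell at 12 h with both siRNAs (adjusted p 0.0207 and 0.00425). TOP1, which relaxes supercoils ahead of the fork, had 0.68, 0.40, 0.51 and 0.55 and rose in siFLuc cells at 8 h (adjusted p 0.0139) and in siBOP1 cells at 12 h (0.0385). WDHD1, a replisome hub, had a mean of -0.48 and passed only with the block.

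The 16 other nucleotide supply genes held the largest change of these lists. SAMHD1, a phosphohydrolase that degrades deoxynucleotides and is a known interferon-stimulated gene, was at 9.71 to 14.4 TPM in the 12 mock libraries and 157.2 to 236.7 TPM in the 12 IFN libraries, and it rose in all 4 comparisons by 4.16, 4.11, 4.08 and 3.9 on the log2 scale. It was the only one of the 16 that rose, and 1, 3, 3 and 4 fell. IMPDH1, of guanine nucleotide synthesis, fell in all 4 (-0.50, -0.66, -0.62 and -0.73). The list's medians were -0.22, -0.29, -0.32 and -0.36.

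Of the 30 RB, E2F and G1/S regulators 27 were tested, and 1, 5, 4 and 5 fell and none rose. CDKN2C, an inhibitor of CDK4 and CDK6, fell in all 4 comparisons (-0.71, -1.16, -0.68 and -0.80), and CDKN1C, another CDK inhibitor, fell in the last 3 (-0.25, -0.82, -0.77 and -0.96). E2F8, an atypical repressor of the E2F family, had a mean of -0.52 and passed only with the block. The medians of this list were -0.07, -0.24, -0.20 and -0.17.

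Of 25 S phase repair and chromatin genes, 0, 2, 0 and 1 fell and 1, 1, 0 and 0 rose, with medians of -0.15, -0.14, -0.22 and -0.20. BRCA2, of recombination repair, had 0.54, 1.08, 0.44 and 0.68 and rose in siFLuc cells at 12 h (adjusted p 0.0274), WEE1, the kinase that restrains CDK1, had -0.63, -0.93, -0.41 and -0.48 and fell there (0.0365), and EXO1, a 5′ exonuclease, fell at 12 h with both siRNAs (-0.71 in each). Of the 30 G2 and mitosis genes 0, 2, 2 and 7 fell and none rose; with the block 2, 20, 16 and 23 fell. Their medians of -0.20, -0.55, -0.41 and -0.62 lay below those of the 46 replication genes (-0.10, -0.26, -0.24 and -0.29) in all 4 comparisons, and the difference between the lists was not tested. BUB1B, a spindle checkpoint kinase, fell in siBOP1 cells at both times (-0.92 and -0.80), PLK1, a mitotic kinase, fell in siBOP1 cells at 12 h (-0.83), and BIRC5, a subunit of the chromosomal passenger complex, had a mean of -0.61 and passed only with the block.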

How the data were processed

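The deposited table held TPM (transcripts scaled by length to a fixed total per library, as the authors deposited them) for 60609 gene rows, 60295 of them with a symbol, and 24 columns, each summing to 1000000. The aligner, quantifier, annotation and genome build behind the TPM are not given in the sources used here, and TPM keeps no depth, so no counting precision could be given and the number of libraries alone limits it. Of the columns, 16 matched a labelled replicate by name; the 8 numbered 4 matched only a group, since the labels number replicates up to 3, and were used as replicates of that group. None was left out, and no 2 columns were identical.

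The genes, the related lists, and the tests were chosen with earlier results of these data known. The 16062 genes that reached 1 TPM in 3 or more libraries were tested on log2(TPM + 1) with limma 3.58.1 (R 4.3.3), 8 group means, an intensity trend and Benjamini-Hochberg adjustment within each of 16 comparisons, at a threshold of 0.05; 3 against 3 libraries cannot go below 0.1 in an exact permutation test. The code was tested on simulated data. Promoter sequences came from RefSeq. Figures used matplotlib 3.10.9.

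Within each time, libraries of the same number deviated together: the correlation of their deviations from the group means was over 0.1 in 24 of 24 pairs (0.115 to 0.508), so the numbers were taken to pair the libraries, and the fit with the block is given where it changes a call or a count by over 1.5 times. Between 8 h and 12 h mock libraries of the same number, the correlations ranged from -0.0037 to 0.196, and the block was set within each time.

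Genes named with the values of the libraries compared (for CCNE2 over time, their ranges) were the 8 with the largest mean change over the IFN, the siRNA and the mock time comparisons, with MCM2, CDC6, CCNE2, E2F1, RRM2 and PCNA in any case. Named with their changes alone, or a range of TPM, were the 3 with the lowest p per interaction and the 3 with the largest mean IFN change in each related list. A gene that this rule picked among the other nucleotide supply genes, and a leukocyte marker, are not reported here by name; list counts and medians include them where they passed the filter. Other genes of the 46 are given by value or range; those called in a comparison or only with the block, or with separate groups, were named after their values were seen. Alternatives were a pseudocount of 0.1, no filter, rescaling by the median of ratios, only the groups compared, the block, libraries numbered 1 and 2 alone, and leaving out each library in turn.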

Additional observations from a re-analysis of the deposited data

How the results depend on the processing

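Depth is unknown. Of 218 changes of single genes, 188 kept their direction under every alternative and 30 changed sign under at least 1; none of the 44 called changes was among the latter. Of 48 counts and medians, 36 stayed within 1.5 times (counts) or 1 SD between replicates (medians) under all of them. The cause of the shifts below was not tested.

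Counts of the 46 genes called lower under IFN (0 and 2 with siFLuc and 4 and 5 with siBOP1 at 8 h and 12 h, as reported) were as follows. They were 1 and 2 in siBOP1 cells with no filter, 1 and 3 there after rescaling, and 2 and 2 there when only the groups compared were fitted. With the replicate block they were 7, 14, 14 and 22 (and 1 higher in siFLuc cells at 8 h), and with libraries numbered 1 and 2 alone 4, 13, 11 and 22. Shares of all genes are given above only for the main fit and the block. For siBOP1 against siFLuc the block gave 4 higher (mock, 8 h), 5 lower (mock, 12 h), 2 higher (IFN, 8 h) and 5 lower (IFN, 12 h), in place of 0, and libraries 1 and 2 alone gave 1 higher under IFN at 8 h. For mock cells with siFLuc over time the block gave 14 higher and libraries 1 and 2 alone 8. Over time the p-values with the block may be too small, for the reason given above. Rescaling turned the libraries numbered 4 at 12 h from 21 higher and 0 lower to 7 higher and 3 lower. The block, a pairing by number, left every call of a single named gene in place and added 61.

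Leaving out 1 library gave 0 to 3, 0 to 4, 0 to 5 and 1 to 11 genes called lower under IFN, in the same order. It gave 0 to 1 lower for siBOP1 against siFLuc under IFN at 12 h (1 without the siBOP1 IFN library numbered 4) and 0 to 1 higher for siFLuc mock over time (1 without the 12 h library numbered 4).

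No change listed next was called in any of these settings. After rescaling, siBOP1 against siFLuc under IFN at 8 h was 0.0182 for MCM2 and 0.0116 for CDC6. With libraries 1 and 2 alone, IFN at 8 h gave 0.0401 for RRM2 (siFLuc) and -0.0246 for PCNA (siBOP1). In the same setting siBOP1 against siFLuc gave 0.12 for CLSPN and 0.0652 for CCNE1 (mock, 8 h), 0.0878 for CDC6, 0.22 for CCNE2 and -0.0225 for E2F1 (mock, 12 h), 0.18 for MCM2 and 0.0271 for CDC6 (IFN, 8 h) and -0.12 for E2F1 (IFN, 12 h). The difference of IFN responses for CDC25A at 12 h was -0.0858, and siBOP1 mock over time gave 0.0941 for MCM2, 0.0442 for CDC6 and 0.19 for RRM2.

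Leaving out 1 library, the sign also changed for the following, given from lowest to highest. These fits leave the library numbers unbalanced between the groups, so differences between numbers enter the values. Under IFN at 8 h in siFLuc cells these were MCM2 (-0.49 to 0.042), CDC6 (-0.34 to 0.17), RRM2 (-0.42 to 0.23), EXO1 (-0.36 to 0.0224) and CCNE2 (-0.39 to 0.0053), and in siBOP1 cells RRM2 (-0.39 to 0.0879) and PCNA (-0.0915 to 0.20). Between siRNAs in mock cells at 8 h they were CCNE1 (-0.21 to 0.15), CCNE2 (-0.11 to 0.12), MCM10 (-0.16 to 0.24), MCM2 (-0.0597 to 0.38), RRM2 (-0.59 to 0.0592), CLSPN (-0.27 to 0.10) and MCM3 (-0.19 to 0.0118), and at 12 h CDC6 (-0.15 to 0.14), CCNE2 (-0.19 to 0.16) and E2F1 (-0.11 to 0.13). Under IFN at 8 h they were MCM2 (-0.22 to 0.28), CDC6 (-0.18 to 0.20), PCNA (-0.10 to 0.20) and MCM10 (-0.38 to 0.11), and at 12 h CDC6 (-0.54 to 0.10), PCNA (-0.16 to 0.0638), E2F1 (-0.29 to 0.17) and MCM2 (-0.34 to 0.0434). In mock cells over time they were MCM2 (-0.0713 to 0.092), CDC6 (-0.12 to 0.0955) and RRM2 (-0.20 to 0.0609) with siBOP1, and RRM2 (-0.0791 to 0.57) with siFLuc.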
